A study of Mus musculus with 10 samples.

Results

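The long noncoding RNAs (lncRNAs) Gm10638, Gm17251, 1700052K11Rik and Gm32856, together with Siah1a, Rab11b and Tlk2, the coding genes that the first 3 of them overlap on the opposite strand, were followed in brown fat of mice lacking another lncRNA, Gm15551. These 7 genes, of 54347 gene records in the count table, were chosen from the data: the lncRNAs had the smallest p-values for genotype among 864 lncRNAs tested, and the coding genes were taken with them. Their genotype differences are therefore given as a description, with no test.

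Poly A RNA was sequenced from interscapular brown adipose tissue (iBAT), the main heat-producing fat depot of the mouse, of 10 mice. The ΔGm15551 group (strain C57BL/6N-{delta}Gm15551, genotype ko; knockout replicates 1, 2, 4, 5 and 7) carried a CRISPR/Cas9 deletion that removed the first exon of Gm15551 and was passed through the germline, so that no cell type or age was singled out. The other group (genotype wt; wild type replicates 2, 3, 5, 6 and 7) was made up of wild type litter mates on C57BL/6N. All mice of both groups were 12 weeks old and had been kept alone at 4 °C for 24 h before dissection, so no mouse kept in the warm was compared here. The study describes 1 deletion allele, and the labels used here do not give sex or say which mice shared a litter.

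Many lncRNA genes start near, or inside, a coding gene and run in the opposite direction, often from a shared CpG-rich promoter region that fires both ways. Some such antisense RNAs act on the gene they overlap, through the act of transcription, chromatin or pairing of the transcripts, and many have no known function. Among the coding partners, Siah1a encodes a RING-type E3 ubiquitin ligase that marks proteins for the proteasome, Rab11b a small GTPase of recycling endosomes, and Tlk2 a tousled-like kinase that phosphorylates the histone chaperone ASF1. The roles of the 4 lncRNAs are not given here because none was known with certainty.

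Total counts ran from 9680976 to 15771170 per mouse. Gm15551 had 0 counts in all 5 knockout mice and 1, 2, 6, 7 and 0 counts in wild type replicates 2, 3, 5, 6 and 7, so the targeted RNA was close to the limit of detection in both groups and checks the labels only weakly. Ucp1, the uncoupling protein that defines brown fat, lay between 5837 and 11130 CPM in every mouse (CPM is a gene's count scaled to a common library size). The Ucp1 values were scaled by raw library totals alone, unlike the other CPM values given here. The summed share of 10 skeletal muscle genes ranged over 0.000144% to 0.198% of counts among knockout and 0.000159% to 0.311% among wild type mice, and what it adds to the results was not tested. Wild type replicates 5, 6 and 7 carry mouse numbers of a higher series that holds no knockout mouse, so for these 3 mice series and genotype cannot be told apart. In bulk tissue, fewer cells of a type and less RNA per cell cannot be told apart either.

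Across the 13733 genes tested, 0 passed an adjusted p of 0.05 between genotypes (0%; edgeR quasi-likelihood test with Benjamini-Hochberg adjustment, smallest adjusted p = 0.99998). Before adjustment, 220 genes (1.6%) had an edgeR p under 0.05, among them 23 of the 864 lncRNAs (2.66%). DESeq2 gave 229 and limma-voom 249 such genes, with 0 calls after adjustment by either tool. Being first in this ranking therefore did not make any of the 4 lncRNAs a called gene. Among all genes tested the rank by p was 1 for Gm10638, 2 for Gm17251, 5 for 1700052K11Rik and 7 for Gm32856.

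The positions of the genes are given on GRCm38 from the GENCODE M21 annotation. Gm10638 lay on chr8:86745699-86746603 on the plus strand as 1 exon of 905 bp, and Siah1a on chr8:86724007-86745934 on the minus strand. The first exon of Siah1a sat inside the Gm10638 exon, with 118 bp of exonic overlap, or 13.0% of the lncRNA, and the annotated starts were 235 bp apart. The deposited table lists Gm10638 as antisense and RefSeq lists it as lncRNA, whereas M21 still has it as protein coding.

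Gm17251 covered chr17:33759992-33761870 on the plus strand with exons of 596 and 329 bp. Rab11b covered chr17:33742484-33760530 on the minus strand. The exonic overlap came to 329 bp, which is 35.6% of the lncRNA, and 5 of the 6 annotated Rab11b transcripts started within the first exon of Gm17251. The table classes Gm17251 as a bidirectional promoter lncRNA, although on these models the transcripts run through each other's starts.

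1700052K11Rik was a single exon of 3708 bp on chr11:105177726-105181433 on the minus strand, the longest of the 3 overlapping lncRNAs. Tlk2 ran in the opposite direction over chr11:105178807-105283959. They shared 775 bp of exon (20.9% of the lncRNA) in 3 blocks, while the rest of the 2627 bp shared by the gene bodies was Tlk2 intron. RefSeq starts the Tlk2 gene farther upstream, at chr11:105167895, so on that model the whole lncRNA lies within it. Of 12 Tlk2 transcripts, 2 started inside the lncRNA, and the nearest protein-coding start, that of Tlk2-204, lay 94 bp upstream of the lncRNA's own start.

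Gm32856 differed from the others in its place in the genome. It spanned chr8:129263641-129282844 on the plus strand with 2 transcripts, overlapped 0 annotated genes on either strand and is classed as lincRNA, an intergenic lncRNA, in the table. RefSeq lists the same gene as protein coding.

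**Figure D1:**
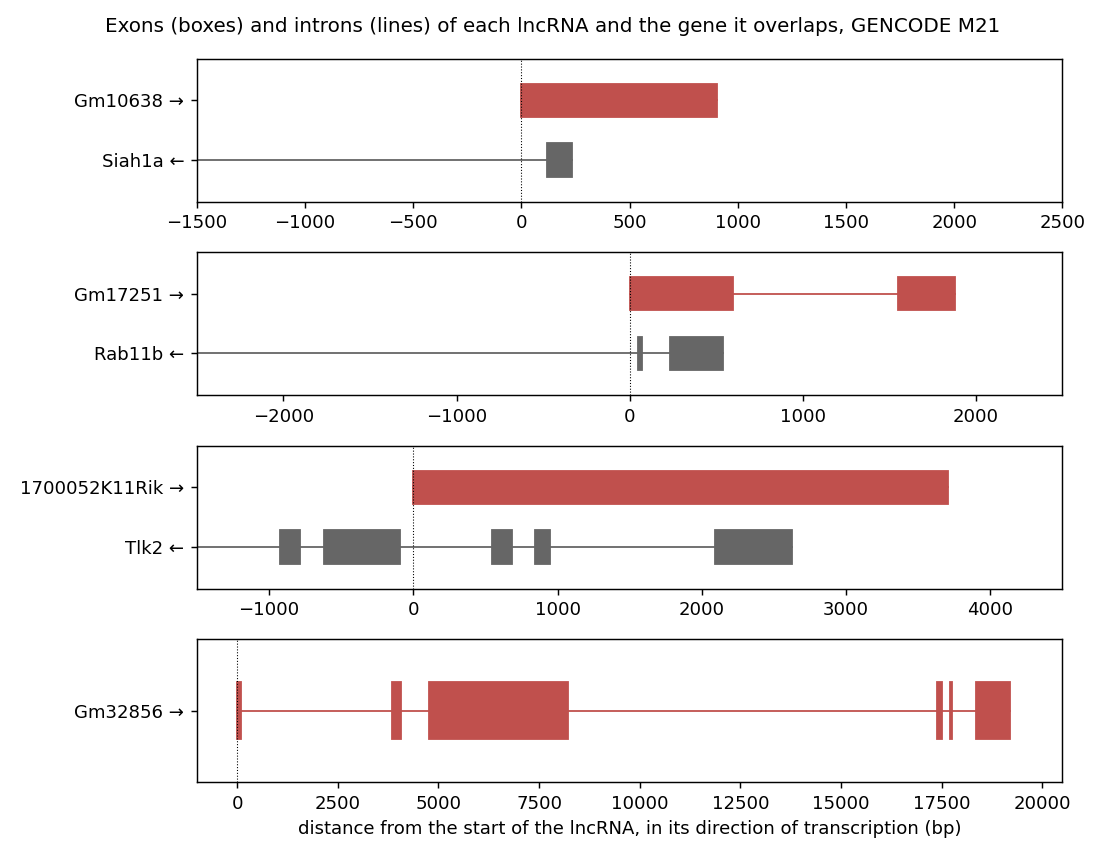
Exons (boxes) and introns (lines) of each lncRNA (red) and its overlapped coding gene (grey), drawn against distance in bp from the lncRNA's start in its direction of transcription. Arrows give the direction of each gene. The first exon of Siah1a lies inside Gm10638, starts of Rab11b and Tlk2 lie inside the first exon of Gm17251 and the exon of 1700052K11Rik, and Gm32856 has no overlapping gene.

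The promoter sequences show how far each lncRNA exon reaches across its partner's promoter. They were taken from the RefSeq promoter table (GRCm38.p6) and are printed 5′ to 3′ on the strand of the named gene. Each ends at the base before a RefSeq start of that gene. The Rab11b window is the exception, trimmed to the bases upstream of every annotated Rab11b exon. Capitals mark bases that lie in an M21 exon of the overlapping lncRNA. They are Siah1a at chr8:86746007-86746256 on the minus strand, Rab11b at chr17:33760531-33760736 on the minus strand, Tlk2 at chr11:105181277-105181526 on the plus strand and, as the member with no partner, Gm32856 at chr8:129263380-129263629 on the plus strand.
Siah1a: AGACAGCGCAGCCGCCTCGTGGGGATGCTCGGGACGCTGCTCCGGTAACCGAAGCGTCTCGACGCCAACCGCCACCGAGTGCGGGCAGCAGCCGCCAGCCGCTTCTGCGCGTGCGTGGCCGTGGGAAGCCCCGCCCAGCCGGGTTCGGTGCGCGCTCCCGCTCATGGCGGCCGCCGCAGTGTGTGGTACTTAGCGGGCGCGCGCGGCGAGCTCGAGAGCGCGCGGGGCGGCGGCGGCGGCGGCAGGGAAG
Rab11b: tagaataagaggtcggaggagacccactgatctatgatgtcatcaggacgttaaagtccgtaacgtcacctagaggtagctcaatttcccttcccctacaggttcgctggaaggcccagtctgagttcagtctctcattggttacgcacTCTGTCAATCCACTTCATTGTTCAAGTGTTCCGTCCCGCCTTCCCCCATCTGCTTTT
Tlk2: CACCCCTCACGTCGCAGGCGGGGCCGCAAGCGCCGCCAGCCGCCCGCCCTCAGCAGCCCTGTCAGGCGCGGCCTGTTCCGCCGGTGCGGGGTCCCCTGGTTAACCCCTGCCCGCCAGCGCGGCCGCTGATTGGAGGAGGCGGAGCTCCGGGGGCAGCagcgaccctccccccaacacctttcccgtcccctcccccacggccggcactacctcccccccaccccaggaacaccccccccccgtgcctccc
Gm32856: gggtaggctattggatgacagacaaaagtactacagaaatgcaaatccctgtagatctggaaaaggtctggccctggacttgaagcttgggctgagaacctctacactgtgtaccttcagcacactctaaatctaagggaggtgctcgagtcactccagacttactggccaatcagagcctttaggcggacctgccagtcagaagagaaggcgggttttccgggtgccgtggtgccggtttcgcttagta

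All 250 bases upstream of Siah1a were exon of Gm10638, against 157 of 250 for this Tlk2 start and 101 of 250 for Rab11b before trimming. The Siah1a window held 43 CpG dinucleotides, more than in 99.3% of the 32851 promoters of the table, and the Tlk2 window held 24, more than in 88% of them. Rab11b (9 CpG over its full 250 bases) and Gm32856 (7 CpG) were near the median of 6. Gm32856 has another RefSeq start at chr8:129263613, whose window also held 7 CpG. Its RefSeq gene begins at chr8:129263392, inside the printed window. Another Tlk2 start was unlike the one printed. All 250 bases before it, chr11:105178557-105178806, lay in the M21 exon of 1700052K11Rik, and they held 2 CpG, more than in 18.8% of promoters. The RefSeq span of this lncRNA, chr11:105179020-105181433, does not reach these bases, so this overlap depends on the model used. The letters GGGCGG, the GC box, occurred on either strand 2 times in the Siah1a window, 2 times in the printed one of Tlk2 and 0 times in those of Rab11b and Gm32856, and 32.7% of all windows of this length held them. CCAAT occurred 1 time for Rab11b, 1 time for Tlk2 and 2 times for Gm32856 (33.8% of all windows), and TATAAA in none of the 4 (12.4% of all windows). These are letter matches, not binding sites.

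Gm10638 had the largest fold difference of the 7 genes. Its level was 8.88, 11.1, 8.93, 10.7 and 6.79 CPM in knockout replicates 1, 2, 4, 5 and 7. In wild type replicates 2, 3, 5, 6 and 7 it was 5.46, 4.20, 5.44, 5.79 and 5.24 CPM. Every knockout mouse was above every wild type mouse, with knockout replicate 7 closest to the wild type range. The means were 9.27 ± 1.71 and 5.23 ± 0.609 CPM (SD, n = 5 each), a log2 fold change of 0.82 (SE 0.16).

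Its partner Siah1a did not separate the groups in this way. Siah1a was measured at 19.8, 21.3, 17.7, 16.1 and 21.5 CPM in knockout replicates 1, 2, 4, 5 and 7 and at 17.9, 15.7, 16.7, 18.2 and 18.2 CPM in wild type replicates 2, 3, 5, 6 and 7. The groups overlapped, with 3 of 5 knockout mice above the whole wild type range. The means were 19.3 ± 2.33 and 17.3 ± 1.10 CPM, a log2 fold change of 0.15 (SE 0.11). Knockout replicate 5, which had the second highest Gm10638, had the lowest Siah1a of its group.

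Gm17251 was the second-ranked lncRNA. It stood at 6.53, 5.83, 7.44, 8.59 and 6.56 CPM in the knockout mice in the order above, and at 5.37, 3.94, 4.29, 4.62 and 4.00 CPM in the wild type mice. The groups did not overlap, but only a narrow gap separated knockout replicate 2 from wild type replicate 2. Means were 6.99 ± 1.06 and 4.45 ± 0.584 CPM, with a log2 fold change of 0.65 (SE 0.15).

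Rab11b, the most abundant of the 7 genes in CPM, gave 73.5, 85.5, 96.3, 100.2 and 92.3 CPM in knockout and 82.3, 85.3, 86.6, 84.3 and 88.9 CPM in wild type mice. The wild type values lay within the knockout range: 3 knockout mice were above all wild type mice and 1 was below all of them. The means, 89.6 ± 10.53 and 85.5 ± 2.49 CPM, differed by a log2 fold change of 0.07 (SE 0.10), which was 0.02 without knockout replicate 5 and 0.13 without knockout replicate 1.

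1700052K11Rik had the tightest values of the 4 lncRNAs relative to its level in the wild type mice. It was measured at 7.48, 8.88, 7.22, 7.90 and 7.61 CPM in knockout and 6.18, 6.17, 5.44, 5.60 and 5.24 CPM in wild type mice. All knockout values were higher than all wild type values. Means of 7.82 ± 0.642 and 5.72 ± 0.430 CPM gave a log2 fold change of 0.45 (SE 0.12).

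Tlk2 had its mean on the other side. It was at 27.8, 38.7, 32.2, 29.1 and 33.9 CPM in knockout mice and at 34.1, 36.9, 32.3, 39.6 and 26.6 CPM in wild type mice. Both the highest and the lowest value belonged to wild type mice, replicates 6 and 7. The means were 32.3 ± 4.28 and 33.9 ± 4.94 CPM, a log2 fold change of -0.07 (SE 0.13), and the sign turned when only the 6 mice with replicate numbers found in both groups were used (0.12 with and 0.13 without a replicate block).

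Gm32856 was the only one of the 4 lncRNAs with the lower mean in knockout mice. Its level was 6.97, 6.75, 7.44, 6.29 and 6.56 CPM in knockout mice and 8.69, 11.9, 6.73, 10.8 and 12.0 CPM in wild type mice. In this gene 4 of 5 wild type mice were above every knockout mouse, while wild type replicate 5 lay among the knockout values. Means of 6.80 ± 0.436 and 10.03 ± 2.28 CPM gave a log2 fold change of -0.56 (SE 0.16).

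**Figure D2:**
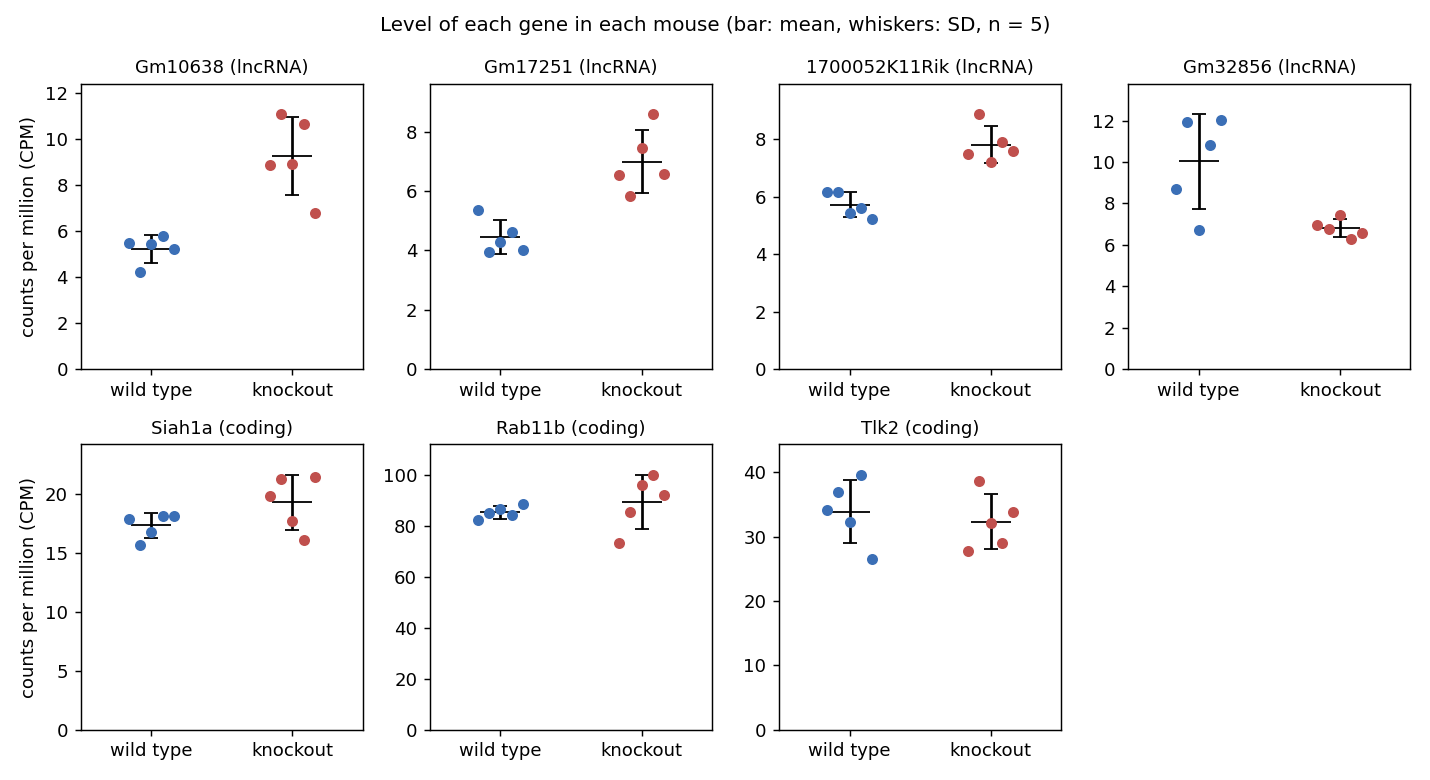
Level in CPM of the 4 lncRNAs (top) and the 3 overlapped coding genes (bottom) in each of 5 wild type (blue) and 5 knockout (red) mice, with the mean and SD. Each panel has its own axis from 0. The groups are apart for Gm10638, Gm17251 and 1700052K11Rik and overlap for Siah1a, Rab11b, Tlk2 and Gm32856.

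Non-overlap of the groups was thus seen for 3 of the 7 genes, all in the direction of higher knockout values. Over all genes tested 31 of 13733 (0.226%) had every knockout mouse above every wild type mouse, and 13 (0.0947%) the reverse. Among lncRNAs these numbers were 5 of 864 (0.579%) and 2 of 864 (0.231%). Since the members were picked for their p-values in this contrast, nothing is read from their count. The median size of the log2 fold change was 0.17 over lncRNAs and 0.09 over all genes tested.

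The cut after the fourth lncRNA was not marked by a step in the values. Rank 5 was held by the deleted gene Gm15551 itself, with 0 to 7 counts per mouse. Gm45091, the next after it at rank 6, had means of 1.13 and 0.472 CPM in knockout and wild type mice (log2 fold change 1.24). It was followed at ranks 7 and 8 by Gm50340 (0.988 and 0.520 CPM, 0.92) and Gm10644 (3.63 and 2.48 CPM, 0.54). All 5 knockout mice were above all wild type mice for Gm50340, but not for Gm45091 or Gm10644. The 4 chosen lncRNAs had higher levels than between 82.8% and 89.1% of lncRNAs tested, whose median was 1.74 CPM.

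**Figure D3:**
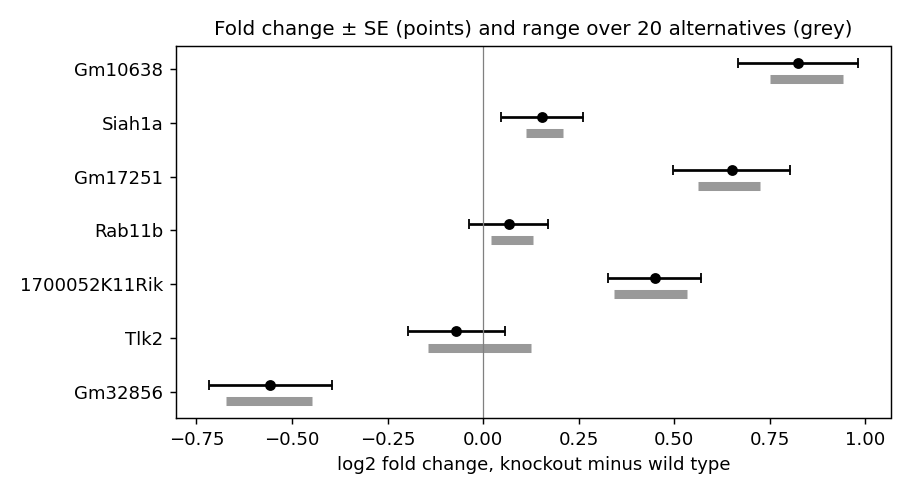
Log2 fold change of knockout minus wild type for the 7 genes (points, with SE) and its lowest and highest value over 20 alternative ways of processing the counts (grey). The grey bar of Tlk2, from -0.15 to 0.13, is the only one that reaches across 0.

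Counts behind these levels were low for the lncRNAs, between 39 and 166 per mouse, and the variance between mice was set beside that expected from counting alone. For 1700052K11Rik the variance between mice was 0.74 times that expected from counting alone in knockout and 0.36 times in wild type mice. The choice by p-value favoured a small spread within groups, so nothing is read from these low values. For Gm10638 it was 4.25 times in knockout mice and 0.88 times in wild type mice, and for Gm17251 it was 2.17 and 0.86 times. Gm32856 had the opposite pattern, with 0.37 times in knockout and 6.55 times in wild type mice. Rab11b, with 866 to 1307 counts per mouse, varied 16.7 times beyond counting in knockout and 0.77 times in wild type mice, and Tlk2 7.84 and 8.36 times.

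Levels of different genes can be compared only per length, here as mean CPM per kb of the merged M21 exons. On this scale Gm10638 was at 10.2 in knockout and 5.77 in wild type mice, beside 9.80 and 8.81 for Siah1a. The table counts a later version of Gm10638 than the one in M21, and RefSeq gives the gene a span of 1362 bp, so its level per kb and its order beside Siah1a in knockout mice depend on the model used. Gm17251 was at 7.56 and 4.81 beside 14.6 and 13.9 for Rab11b. 1700052K11Rik was at 2.11 and 1.54, and Tlk2 at 4.00 and 4.20. RefSeq gives 1700052K11Rik a span of 2414 bp against 3708 bp here. The merged Tlk2 exons, 8070 bp, are longer than its longest transcript of 5494 bp, so the values of this pair also depend on the model. Gm32856, with 1.41 and 2.08, was the lowest of the 4 lncRNAs in knockout mice.

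Taking each lncRNA as a share of the summed counts of the pair removes library scaling. Gm10638 made up 30.9, 34.2, 33.5, 39.8 and 24.0% of the counts of itself and Siah1a in the knockout mice in the order above, and 23.4, 21.1, 24.5, 24.2 and 22.4% in the wild type mice. Knockout replicate 7 was inside the wild type range, and the other 4 were above it. The means were 32.5 ± 5.75% and 23.1 ± 1.39%, a difference of 9.39 percentage points.

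The Gm17251 share of the counts of itself and Rab11b was 8.17, 6.38, 7.17, 7.89 and 6.64% in knockout and 6.13, 4.41, 4.72, 5.20 and 4.31% in wild type mice. The groups did not overlap, and the means of 7.25 ± 0.773% and 4.95 ± 0.742% differed by 2.30 points. For 1700052K11Rik with Tlk2 the share was 21.2, 18.7, 18.3, 21.4 and 18.3% in knockout and 15.3, 14.3, 14.4, 12.4 and 16.5% in wild type mice. Here too the groups were apart, with means of 19.6 ± 1.56% and 14.6 ± 1.496% and a difference of 5.01 points. These shares rest on the same contrast that chose the lncRNAs and carry no test.

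**Figure D4:**
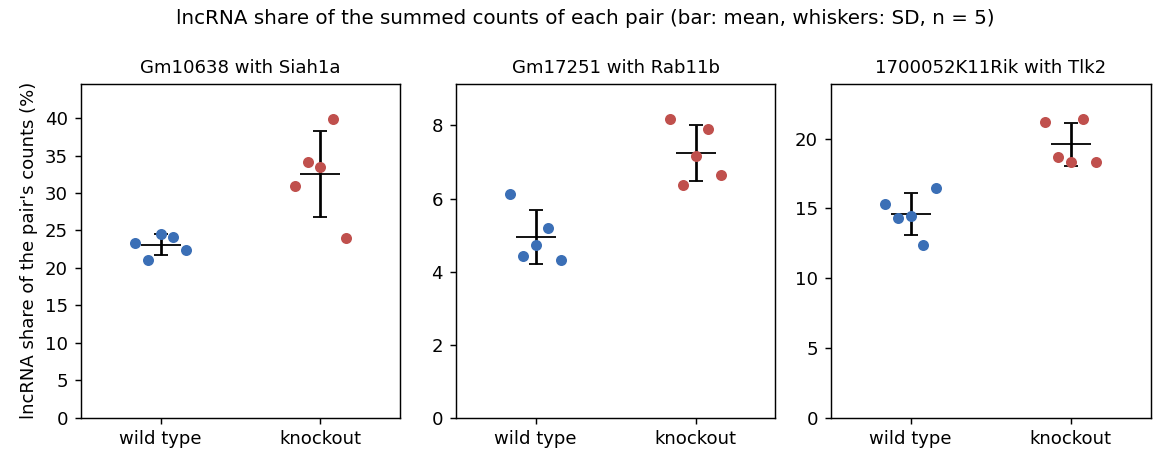
Share of each lncRNA in the summed counts of the lncRNA and its overlapped coding gene (%), in each of 5 wild type (blue) and 5 knockout (red) mice, with mean and SD and axes from 0. Knockout values are above all wild type values for Gm17251 and 1700052K11Rik, and 4 of 5 are for Gm10638.

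How reads of the overlapping exons were assigned bears on every pair. Neither the labels nor the study's methods say whether counting used strand, and without strand, reads of a gene and its antisense partner cannot be told apart. Of the 31-base words of the Gm10638 transcript, 10.1% also occurred, on the opposite strand, in Siah1a. For Gm17251 and Rab11b this was 31.1%, and for 1700052K11Rik and Tlk2 18.7%. The greater part of each lncRNA thus had sequence not found in the annotated transcripts of its partner, but partner introns were not searched. On the M21 models, 2627 of the 3708 bp of 1700052K11Rik lay within the Tlk2 gene body. For Gm17251 and Rab11b the gene bodies shared 539 bp, beside 925 bp of lncRNA exon. What reads of unspliced partner RNA add to the lncRNA counts was not tested. When the counts of a pair were summed into 1 record, the log2 fold change was 0.34 (SE 0.10) for Gm10638 with Siah1a, 0.10 for Gm17251 with Rab11b and 0.0175 for 1700052K11Rik with Tlk2.

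Relatives elsewhere in the genome also share reads with some members. Siah1a had 35% of its words in other transcripts of the same strand, mostly its paralog Siah1b (22.3%) and the pseudogene Siah1-ps2 (21.3%), and Rab11b shared 9.56% with the pseudogene Rab11b-ps2. The counts of Siah1a and Siah1b are therefore uncertain. Gm32856 shared 9.43% of its words with 84 genes, 2.40% with Gm20939 at most. Gm10638 shared none on its own strand.

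The choice by p-value used the size of each lncRNA's spread within the groups, but not how that spread lined up with the partner's values. Whether each lncRNA and its partner moved together was therefore tested once the group means had been subtracted from log2 CPM (n = 10 mice). For 1700052K11Rik and Tlk2 Pearson's r was 0.63 (exact permutation p = 0.0739) and Spearman's rho 0.69 (exact permutation p = 0.0496), two-sided over 14400 assignments within groups. After adjustment over the 6 coefficients computed, both had p = 0.222 by this exact test. Without the 2 mice farthest from the median of the lncRNA, r was 0.49, and without wild type replicate 6 it was 0.76 (exact permutation p = 0.0295, unadjusted).

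For Gm17251 and Rab11b r was 0.365 (exact permutation p = 0.416) and rho 0.43 (exact permutation p = 0.293), with adjusted values of 0.624 and 0.586, and r without the 2 farthest mice was 0.29. This r ran from 0.0576 without knockout replicate 5 to 0.56 without wild type replicate 2. For Gm10638 and Siah1a r was -0.10 (exact permutation p = 0.844) and rho -0.01 (exact permutation p = 1), both 1 after adjustment, and r without the 2 farthest mice was 0.07. The sign of this last r turned when knockout replicate 5 (0.24) or knockout replicate 7 (0.37) was left out. Without wild type replicates 5, 6 and 7, r was 0.64 for 1700052K11Rik and Tlk2, 0.465 for Gm17251 and Rab11b and -0.19 for Gm10638 and Siah1a. None of the 3 pairs was shown to move together or in opposition at this number of mice. The points leaned up in wild type and down in knockout mice for Gm10638 and Siah1a, and down in wild type and up in knockout mice for Gm17251 and Rab11b, so the pooled r averages over opposite leanings. With 5 mice per genotype this is too few for an r within each, and the difference was not tested.

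The same r was computed as a description for the 373 other pairs of a tested lncRNA and a coding gene whose exons overlap on opposite strands. Their median r was 0.10, the quartiles were -0.24 and 0.45, and 57.6% were positive. The r of Gm10638 and Siah1a was higher than in 37.8% of these pairs, that of Gm17251 and Rab11b higher than in 70.5% and that of 1700052K11Rik and Tlk2 higher than in 87.4%. In these pairs the median exonic overlap was 321 bp, or 15.9% of the lncRNA. All points come from the same 10 libraries.

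**Figure D5:**
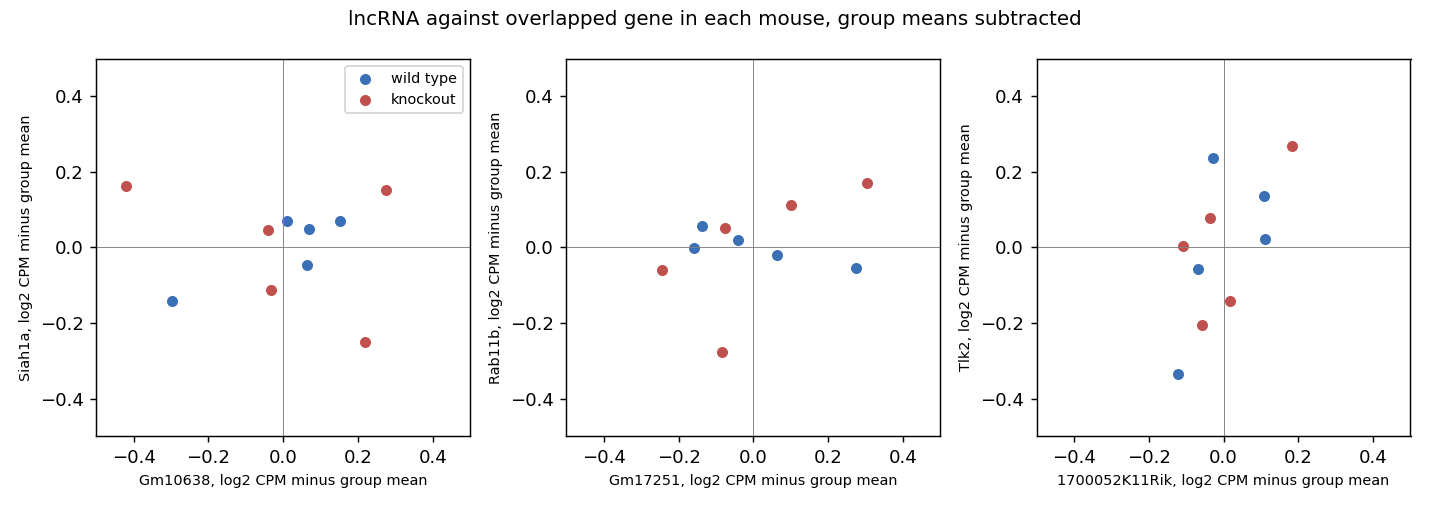
Each of the 10 mice by its log2 CPM of the lncRNA (horizontal) and of the overlapped coding gene (vertical), both minus the mean of the mouse's group; blue is wild type and red is knockout. The points of 1700052K11Rik and Tlk2 lean upward (r = 0.63), and those of Gm10638 and Siah1a show no slope common to both genotypes (pooled r = -0.10).

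Genes whose centred log2 CPM followed each lncRNA most closely over the 10 mice were found by Pearson's r across all tested genes, and none was a coding partner. They were Mier2 (0.96), Plcd3 (0.95) and Eef2kmt (0.95) for Gm10638. For Gm17251 they were Agap1 (0.91), Zfp36 (0.91), which encodes an mRNA-destabilizing zinc finger protein, and Pml (0.91), the organizer of nuclear bodies. For 1700052K11Rik they were Parn (0.92), a poly A-specific ribonuclease, Fam216a (0.89) and Hspb11 (0.89), and for Gm32856 they included Prr5l (0.92) and Myo9a (0.91). These are the highest of many values over few mice. Among the 4 lncRNAs themselves r lay between -0.30 (Gm17251 with Gm32856) and 0.29 (Gm10638 with Gm17251).

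The paralogs of the coding partners were looked at next. Siah2, like Siah1a an E3 ligase, had means of 4.86 and 3.63 CPM in knockout and wild type mice (log2 fold change 0.42, SE 0.21) and Siah1b 1.03 and 1.33 CPM (-0.35, SE 0.28). Rab11a was at 66.5 and 73.1 CPM (-0.14, SE 0.11), and Tlk1 at 22.7 and 24.3 CPM (-0.10, SE 0.12). None of the 4 passed the test across all genes (adjusted p = 0.99998 each, edgeR).

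Genes that work with each coding partner were described by lists, which also hold the partner itself and its paralogs. Of the SIAH list, which holds the ligases with their cofactors, E2 enzymes and substrates, 23 genes were tested, 0 passed in either direction, and 14 had a positive and 9 a negative log2 fold change (median 0.04), between Siah1b at -0.35 and Siah2 at 0.42. Of the RAB11 list, with its effectors, exchange factors, the exocyst and recycling cargo, 37 genes were tested and 0 passed. There 16 were positive and 21 negative (median -0.01), from Wdr44, a Rab11-binding protein, at -0.59 (SE 0.20) to Tbc1d4, the Rab GTPase-activating protein of insulin-driven glucose transporter traffic, at 0.24. Wdr44 was the only 1 of the 79 genes tested from the 3 lists with an unadjusted p under 0.05 (0.0129, edgeR, adjusted p = 0.99998), beside 1.6% of all genes. The count was 5 without wild type replicate 7, where 404 of all 13888 genes tested had such a p, and 3 without knockout replicate 1, where 420 of 13821 did. It was also 3 without wild type replicates 5, 6 and 7 (278 of 14544), and 2 without knockout replicate 4 (271 of 13923), without knockout replicate 7 (258 of 13949) or in the 6 mice with shared numbers and no block (554 of 13797).

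Of the TLK list, the kinases with the histone chaperones and H3.3 deposition factors they meet, 19 genes were tested and 0 passed. It split into 10 positive and 9 negative (median 0.00178), from the kinase substrate Asf1a at -0.24 to the importin Ipo4 at 0.19. Over all genes tested the median log2 fold change was -0.001, and the share of genes called was 0% throughout.

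Within 250 kb of each lncRNA, 27 other genes were tested and 0 passed. Angptl4, which encodes a secreted inhibitor of lipoprotein lipase and is a target of PPAR transcription factors, is 11880 bp from Gm17251 and was its nearest tested neighbour other than Rab11b. It was measured at 151.0, 137.1, 127.8, 172.9 and 106.6 CPM in knockout and 124.4, 78.5, 91.2, 97.7 and 115.9 CPM in wild type mice. The groups overlapped, with 4 of 5 knockout mice above every wild type mouse. Means of 139 ± 24.8 and 102 ± 18.6 CPM gave a log2 fold change of 0.45 (SE 0.16; edgeR unadjusted p = 0.0117, adjusted p = 0.99998), and it was the only neighbour with an unadjusted p under 0.05. Without wild type replicates 5, 6 and 7 the unadjusted edgeR p was 0.073 at a log2 fold change of 0.46.

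None of the other neighbours passed the test. Beside Gm17251, March2 (0.02) and Kank3 (0.05) came next by distance, BC051226, picked out after its value was seen, had the next largest log2 fold change (0.37, SE 0.21), and of its 22 tested neighbours 16 had a positive and 6 a negative log2 fold change, with a median of 0.06. Beside Gm10638 lay Lonp2, a peroxisomal protease (-0.02), and N4bp1 (0.05). Mettl2 (-0.05) and Mrc2 (-0.07) were the tested neighbours of 1700052K11Rik, and 2610044O15Rik8 (-0.19) the single one of Gm32856.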

How the data were processed

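Poly A RNA-seq libraries of iBAT from 5 ΔGm15551 and 5 wild type mice were analysed. The authors deposited estimated counts per gene: reads were filtered with cutadapt and quantified with Salmon against GENCODE M22 transcripts on GRCm38, or M22 joined with RNAcentral, and the deposited values are whole numbers. Tool versions and strand setting are not given in the sources used here. Groups and replicate numbers came from the sample titles, and 0 other value columns were left out.

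Genes were kept by filterByExpr (minimum count 10, minimum total 15), scaled by TMM and tested in R 4.3.3 with edgeR 4.0.16 (robust quasi-likelihood test, no covariate, Benjamini-Hochberg over all genes tested, threshold 0.05). All 7 genes passed the filter, and the targeted gene, which did not, was kept in the fit. CPM uses TMM-scaled totals (raw totals for Ucp1), and log2 CPM a prior count of 2. Nothing states that mice were from separate litters, so p-values measure the spread between these mice. No replicates agreed within sampling noise. Pairs were correlated after subtracting group means, with exact permutation within groups. Positions and 31-base words came from GENCODE M21 (13727 of 13733 tested genes matched by identifier), promoters from RefSeq. The script was tested on simulated data.

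The members, the gene lists and the tests were chosen with earlier results of these data known. Named were the members, their paralogs, the targeted gene, the 3 genes most correlated with each lncRNA, the 3 lncRNAs next in rank after the targeted gene, the 3 nearest tested neighbours and the extremes of each list; 1 of the correlated genes is not reported here. Alternatives were scaling by DESeq2 1.42.0 size factors or library totals, other filters, DESeq2, limma 3.58.1 (voom), non-robust estimation, leaving out each mouse or wild type replicates 5, 6 and 7, a replicate block, summed pairs and a prior count of 0.5.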

Additional observations from a re-analysis of the deposited data

How the results depend on the processing

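The count of genes called stayed at 0 in all alternatives run, including a threshold of 0.1 and the leave-one-out fits (0 to 0), with between 169 and 869 genes at an unadjusted p under 0.05 (420 without knockout replicate 1, 404 without wild type replicate 7, 869 with no filter on low counts). Summed pairs aside, the log2 fold change kept its sign in 20 of 20 alternatives for each member except Tlk2, where 18 of 20 did (-0.15 to 0.13). Summing the counts of each pair moved the value to 0.34 for Gm10638 and for Siah1a, to 0.10 for Gm17251 and to 0.0175 for 1700052K11Rik and for Tlk2, whose sign it turned, as the record then holds both genes. The correlation of Gm10638 with Siah1a turned to 0.185 with library totals alone and ran from -0.38 to 0.372 when 1 mouse was left out (0.243 without knockout replicate 5, 0.372 without knockout replicate 7); the cause was not tested. That of 1700052K11Rik with Tlk2 ran from 0.438 to 0.761 when 1 mouse was left out, with exact permutation p = 0.0295 at the highest value, reached when wild type replicate 6 was the mouse left out. The rank by p among lncRNAs ran from 1 to 5 for Gm10638, 2 to 27 for Gm17251, 3 to 49 for 1700052K11Rik and 1 to 63 for Gm32856, and was 4 or better in 20, 17, 14 and 11 of 21 settings. The 2 replicate-number fits gave the lowest ranks of Gm17251 and Gm32856, and leaving out wild type replicates 5, 6 and 7 that of 1700052K11Rik.

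Replicate numbers 2, 5 and 7 occur in both groups, but same-numbered mice did not deviate together (correlations -0.07, 0.05 and -0.40), so the numbers were not taken as pairs. A replicate block in these 6 mice called 0 genes (398 at an unadjusted p under 0.05, against 554 without the block) and gave log2 fold changes of 0.80 for Gm10638, 0.61 for Gm17251, 0.53 for 1700052K11Rik and -0.45 for Gm32856. The lists, the neighbours and Angptl4 were put through the same alternatives after seeing the data: 0 list genes or neighbours were called, and Angptl4 ran from 0.31 to 0.54, with an unadjusted edgeR p of 0.137 in the 6 mice without a block and 0.22 with it. With 39 to 166 counts per mouse, depth limits every lncRNA value.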
